A study of Mus musculus with 15 samples.

Results

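The TAM receptors are the receptor tyrosine kinases Tyro3, Axl and Mertk, and their ligands are Gas6 and protein S, the product of Pros1. These 5 genes, taken by symbol out of 24411 in the count tables, were followed by RNA sequencing of polyadenylated RNA from mouse liver. Gas6 and protein S are vitamin K-dependent proteins that bind phosphatidylserine on dying cells with one end and a TAM receptor with the other. This bridge lets macrophages engulf the dying cell, and TAM signalling is known for damping innate immune responses. Gas6 binds all of the TAM receptors, while protein S acts on Tyro3 and Mertk and is also an anticoagulant made by hepatocytes. In liver, Mertk is known from Kupffer cells, the resident macrophages, and Axl is known in human liver cancer cells as a target of YAP, the coactivator that the Hippo kinases LATS1 and LATS2 restrain.

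The study set 5 libraries labelled Yap OE (Yap overexpression) and 6 labelled LATS KO (Lats knockout) against 4 labelled TdTomato. The design text names wild type liver as the third condition. The alleles deleted, the transgene, its promoter, any Cre line, and the age of the mice were not given in the sources used here. No label says that the libraries came from separate animals, so every p-value measures the spread between these libraries, which may be technical.

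Counts assigned to genes were 6166680 to 28225360 per library. TdTomato 1 and LATS KO 3 stood apart, with 78.5% and 89.9% of reads left unmapped, where the remaining 13 libraries had 2.53% to 16.7%. They held a count in 8501 and 9710 genes, where the others had 13372 to 15641, and the values of the 5 genes and the counts of the pathway lists are also given for those 13 libraries. Yap1 was at 146 to 212 CPM (counts scaled to library size) in Yap OE, against 65.98 to 86.4 CPM in LATS KO and 94.9 to 115 CPM in TdTomato. Lats1 was at 0 to 27.4 CPM in LATS KO and 0 to 45.99 CPM in TdTomato, and Lats2 at 7.67 to 41.0 CPM in LATS KO and 0 to 19.6 CPM in TdTomato. Neither passed the test there (log2 fold change -0.94 ± 1.00 for Lats1 and 0.58 ± 0.75 for Lats2; SE, adjusted p = 0.62 and 0.695), so these counts over whole genes did not show the deletion, and LATS KO is used below as the label's name. The hepatocyte markers were present in all 3 groups, with all 9 detected and summing to at least 40009 CPM in each library. Of these 9, 3 were called lower in Yap OE and 1 in LATS KO against TdTomato with the fit described next, and none higher. Of all genes tested, 10.8% were called lower in Yap OE and 0.973% in LATS KO. The sum of these hepatocyte markers had a median of 104603 CPM in Yap OE, 118474 CPM in LATS KO and 149103 CPM in TdTomato.

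Axl and Gas6 were higher in both manipulated groups than in TdTomato liver, and Tyro3 was higher in Yap OE. Mertk and Pros1 passed the test in neither. Differences are log2 fold changes with their standard errors from a single edgeR quasi-likelihood fit of all 15 libraries, adjusted over the 13055 genes tested, with a call at an adjusted p under 0.05. Against TdTomato, 3 of the 5 genes were called higher in Yap OE, where 17.9% of all tested genes were, and 2 of 5 in LATS KO, where 10% were. Both comparisons use the same 4 TdTomato libraries. None of the 5 was called between Yap OE and LATS KO, where 0.988% of all genes were called. In that comparison 1 gene, Pros1, had an unadjusted p under 0.05, DESeq2 called none, and limma voom called Tyro3 and Gas6. Limma voom called 7325 of all 13055 genes there, so these 2 calls do not set the 5 genes apart. The edgeR fit of the 13 libraries also called none of the 5 between Yap OE and LATS KO, with log2 fold changes of -0.60 ± 0.54 for Axl, -0.51 ± 0.32 for Mertk, 1.45 ± 0.63 for Tyro3, 1.36 ± 0.58 for Gas6 and -0.69 ± 0.31 for Pros1 (SE, adjusted p = 0.132 to 0.477). That fit called 27.2% of its 13256 genes higher in Yap OE and 13.7% in LATS KO against TdTomato, and 12.7% in either direction between them.

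**Figure D1:**
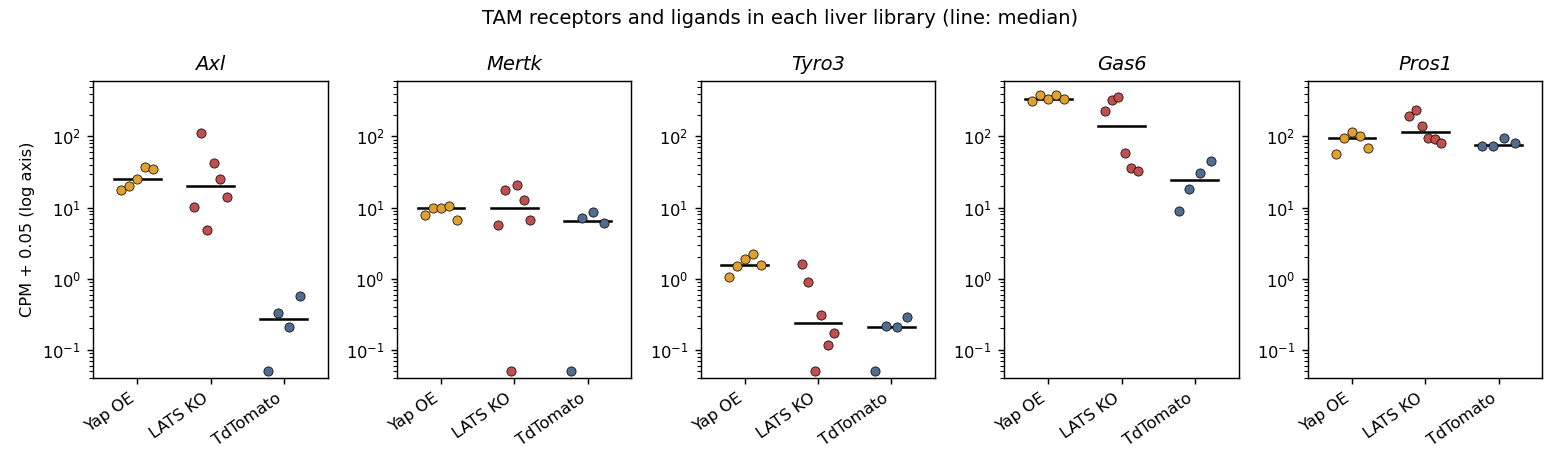
CPM plus 0.05 on a log axis for each of the 5 genes, with 1 point per library and the group's median as a line, for 5 Yap OE, 6 LATS KO and 4 TdTomato libraries. Axl was at 4.78 CPM or more in the manipulated libraries and at 0.527 CPM or less in the TdTomato libraries, while the Pros1 groups overlapped.

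Axl (ENSMUSG00000002602.16; mm10, chr7:25757273-25788705, minus strand) encodes the receptor that responds to Gas6. Its level was 17.8, 20.3, 24.95, 37.1 and 34.3 CPM in Yap OE libraries 1 to 5. In LATS KO it had a lowest value of 4.78, a median of 19.7 and a highest value of 112 CPM. In TdTomato libraries 1 to 4 it was 0, 0.276, 0.159 and 0.527 CPM, which came from 18 counts in all. No manipulated library overlapped a TdTomato library, a separation that 28.3% of all genes showed upward in Yap OE and 6.65% in LATS KO. The log2 fold change against TdTomato was 6.67 ± 1.02 in Yap OE (SE, n = 5 and 4; edgeR, adjusted p = 0.00139) and 7.05 ± 1.03 in LATS KO (n = 6 and 4; adjusted p = 0.00319). In the 13 libraries these values were 6.29 and 6.89 (adjusted p = 0.000676 and 0.00172). Without TdTomato 4 they were 7.39 and 7.77, and without LATS KO 2 the LATS KO value was 6.21. In a fit of LATS KO and TdTomato alone Axl was not called (adjusted p = 0.0621), and that fit called 1 gene in all. Yap OE and LATS KO did not differ beyond their spread (log2 fold change -0.37 ± 0.66, edgeR, adjusted p = 0.899), and the sign turned to 0.48 without LATS KO 2.

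The DNA before the start of Axl is shown because the TEAD factors, through which YAP acts, bind the letters GGAATG. The 250 bases before its RefSeq start (GRCm38.p6, chr7:25788734-25788983, minus strand) hold this motif once, in capitals, at position -233. Gas6 is shown beside it as the other gene called in both comparisons, and its window (GRCm38.p6, chr8:13494536-13494785, minus strand) has no match.
Axl: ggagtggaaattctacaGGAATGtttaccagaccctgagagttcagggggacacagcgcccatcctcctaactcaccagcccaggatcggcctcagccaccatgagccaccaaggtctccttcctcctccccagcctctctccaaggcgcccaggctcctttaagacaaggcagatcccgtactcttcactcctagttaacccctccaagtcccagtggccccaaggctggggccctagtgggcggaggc
Gas6: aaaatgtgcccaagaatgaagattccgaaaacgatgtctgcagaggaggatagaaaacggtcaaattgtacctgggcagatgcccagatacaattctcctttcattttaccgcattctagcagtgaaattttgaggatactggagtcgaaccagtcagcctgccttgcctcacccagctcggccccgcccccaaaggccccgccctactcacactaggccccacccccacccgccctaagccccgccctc

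All 5 genes matched a RefSeq window, which runs from 250 bases before the start to 50 after it. On both strands, GGAATG was found in the Axl window and in none of the other 4. The AP-1 motif TGANTCA, which reads the same on both strands, was in none of the 5. Among all 32851 windows of 300 bases, 14.7% held GGAATG and 7.81% held TGANTCA. A match is a description of the letters and shows no binding, and the motifs do not overlap here.

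Mertk (ENSMUSG00000014361.5; mm10, chr2:128698956-128802894, plus strand) encodes the TAM receptor through which macrophages clear apoptotic cells. It was at 7.94, 9.74, 9.95, 10.4 and 6.70 CPM in Yap OE libraries 1 to 5. In LATS KO the lowest value was 0, the median 9.77 and the highest 20.7 CPM, and TdTomato libraries 1 to 4 had 0, 7.01, 8.66 and 5.98 CPM. The only libraries without a Mertk count were LATS KO 3 and TdTomato 1, the pair with most reads unmapped, and the groups overlapped. The log2 fold change against TdTomato was 0.72 ± 1.09 in Yap OE (edgeR, adjusted p = 0.669) and 0.97 ± 1.06 in LATS KO (adjusted p = 0.632). In the 13 libraries these values were 0.31 ± 0.38 (adjusted p = 0.516) and 0.82 ± 0.39 (adjusted p = 0.163), so the standard errors were smaller there and neither was called. Yap OE and LATS KO differed by -0.24 ± 0.97 on the log2 scale (adjusted p = 0.969).

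Tyro3 (ENSMUSG00000027298.17; mm10, chr2:119797733-119818104, plus strand), the TAM receptor best known from the nervous system, had the lowest mean level per exon length in each group. Yap OE libraries 1 to 5 had 1.02, 1.48, 1.87, 2.18 and 1.53 CPM. LATS KO had a lowest value of 0, a median of 0.192 and a highest value of 1.57 CPM, and TdTomato libraries 1 to 4 had 0, 0.166, 0.159 and 0.239 CPM, from 10 counts in all. The Yap OE libraries lay above the TdTomato libraries, while 4 of the 6 LATS KO libraries were at 0.263 CPM or less. The log2 fold change against TdTomato was 3.42 ± 1.09 in Yap OE (edgeR, adjusted p = 0.0287) and 1.72 ± 1.02 in LATS KO (adjusted p = 0.321). The Yap OE value was 3.04 in the 13 libraries (adjusted p = 0.0131), and that of LATS KO was 1.59 ± 0.86 (adjusted p = 0.221). The call was lost without TdTomato 2, 3 or 4 or Yap OE 4 (adjusted p = 0.0538 to 0.0661), and the LATS KO value was -0.049 with limma voom. Between Yap OE and LATS KO the log2 fold change was 1.70 ± 0.85 (edgeR, adjusted p = 0.379). It was 3.07 with limma voom (adjusted p = 1.73e-05), which called 7325 of 13055 genes in that comparison.

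Gas6 (ENSMUSG00000031451.6; mm10, chr8:13465374-13494490, minus strand) encodes the ligand of all 3 receptors and had the highest mean level per exon length of the 5 in Yap OE. Its level was 310, 378, 335, 382 and 331 CPM in Yap OE libraries 1 to 5. In LATS KO the lowest value was 33.0, the median 141 and the highest 358 CPM, and TdTomato libraries 1 to 4 had 8.83, 18.3, 30.8 and 45.6 CPM. The Yap OE values were close together (347 ± 31.4 CPM, SD, n = 5) and all above the TdTomato values (25.9 ± 15.9 CPM, n = 4), whereas LATS KO libraries 5 and 6 lay inside the TdTomato range. The log2 fold change against TdTomato was 3.74 ± 0.75 in Yap OE (edgeR, adjusted p = 0.0040) and 2.73 ± 0.71 in LATS KO (adjusted p = 0.0225). The Yap OE value was 3.46 in the 13 libraries (adjusted p = 0.00397). The LATS KO call was lost without TdTomato 1, 2 or 3 (adjusted p = 0.0585 to 0.0769), in the 13 libraries (2.10, adjusted p = 0.0632) and in the fit of LATS KO and TdTomato alone (2.72, adjusted p = 0.112), and the value was 1.05 with limma voom. Yap OE against LATS KO gave 1.01 ± 0.59 (edgeR, adjusted p = 0.479) and 2.85 with limma voom (adjusted p = 1.41e-06), which called 7325 of 13055 genes there. Gas6 overlaps Tmem255b on the opposite strand, and the counts used here were stranded.

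Pros1 (ENSMUSG00000022912.8; mm10, chr16:62854307-62929346, plus strand) encodes protein S. Its level was 56.4, 95.1, 114, 99.9 and 67.7 CPM in Yap OE libraries 1 to 5. In LATS KO the lowest value was 82.0, the median 117 and the highest 233 CPM, and TdTomato libraries 1 to 4 had 72.9, 72.5, 94.8 and 80.8 CPM. The 3 groups overlapped. The log2 fold change against TdTomato was 0.11 ± 0.31 in Yap OE (edgeR, adjusted p = 0.837) and 0.79 ± 0.31 in LATS KO (adjusted p = 0.112), and Yap OE against LATS KO gave -0.68 ± 0.28 (adjusted p = 0.269). In the 13 libraries the values against TdTomato were 0.063 in Yap OE and 0.75 in LATS KO, with neither called. The median over all 13055 genes was 0.17 in Yap OE and 0.13 in LATS KO against TdTomato, and -0.028 between them.

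**Figure D2:**
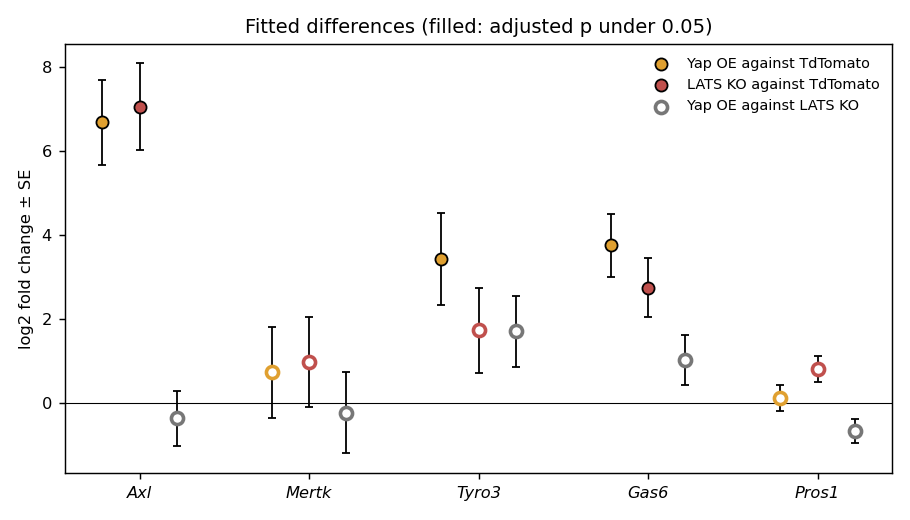
Log2 fold change with its standard error for each gene in the 3 comparisons, from the edgeR fit of 15 libraries, with filled points where the adjusted p was under 0.05. The filled points are Axl and Gas6 in both comparisons with TdTomato and Tyro3 in Yap OE against TdTomato.

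Divided by exon length, which puts the genes on one scale, the mean levels had the same order in Yap OE and LATS KO and another in TdTomato. In Yap OE the mean CPM per kilobase was 136 for Gas6, 21.2 for Pros1, 5.34 for Axl, 2.06 for Mertk and 0.261 for Tyro3, and no neighbours in that order overlapped between libraries. In LATS KO it was 67.7 for Gas6, 34.02 for Pros1, 6.91 for Axl, 2.44 for Mertk and 0.0774 for Tyro3, and neighbours overlapped. In TdTomato it was 19.6 for Pros1, 10.2 for Gas6, 1.25 for Mertk, 0.0478 for Axl and 0.0227 for Tyro3. Pros1 was thus above Gas6 in each of the 4 TdTomato libraries and below it in each of the 5 Yap OE libraries, and it was above Gas6 in LATS KO 4 to 6 and below it in LATS KO 1 to 3. Mertk was above Axl in TdTomato 2 to 4, and Axl above Mertk in each of the 11 manipulated libraries.

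These shifts were measured as log2 ratios within a library, with 0.5 CPM added to each gene, and compared with a two-sided exact permutation test adjusted over the 6 comparisons. The Axl to Mertk log2 ratio was 1.497 ± 0.52 in Yap OE (SD, n = 5) and -2.43 ± 1.69 in TdTomato (n = 4), a difference of 3.93 (exact permutation p = 0.0159, adjusted p = 0.0238). It was 1.64 ± 1.10 in LATS KO (n = 6), 4.07 above TdTomato (exact permutation p = 0.00952, adjusted p = 0.0238). Each of these p-values is the smallest that the number of libraries allows. The added value weighs on the size of these differences, since Axl was at 0 in TdTomato 1, where Mertk was also at 0, and at 0.159 to 0.527 CPM in TdTomato 2 to 4. With 0.1 CPM added instead, the differences were 4.69 for Yap OE and 5.18 for LATS KO. In the 13 libraries they were 4.74 for Yap OE and 4.53 for LATS KO, and without TdTomato 1 they were 4.74 and 4.88. With 3 TdTomato libraries, in the 13 or without TdTomato 1, 2 or 3, both had an adjusted p of 0.0536, while the exact permutation p stayed the smallest possible (0.0357 for 5 against 3 libraries and 0.0238 for 6 against 3), so the loss of the call there says nothing about stability. Yap OE and LATS KO differed by -0.14 (exact permutation p = 0.823), and by 0.21 in the 13 libraries.

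The Gas6 to Pros1 log2 ratio separated all 3 groups in their means. It was 2.04 ± 0.34 in Yap OE (SD, n = 5), -0.22 ± 1.09 in LATS KO (n = 6) and -1.84 ± 0.90 in TdTomato (n = 4). Yap OE was 2.26 above LATS KO, with no overlap (exact permutation p = 0.00433, the smallest possible; adjusted p = 0.0238), and this held in each of the alternatives run, at 2.03 to 2.57. Yap OE was 3.88 above TdTomato (exact permutation p = 0.0159, the smallest possible; adjusted p = 0.0238). LATS KO was 1.62 above TdTomato (exact permutation p = 0.0381, adjusted p = 0.0457), with overlap, and this call was lost without any one of TdTomato 1, 2 or 3 or LATS KO 1, 2, 3 or 4 and in the 13 libraries (0.93, adjusted p = 0.171). For Yap OE against TdTomato, the adjusted p was 0.0536 in the 13 libraries or without TdTomato 1, 2 or 3, again with the smallest exact permutation p possible there (0.0357).

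**Figure D3:**
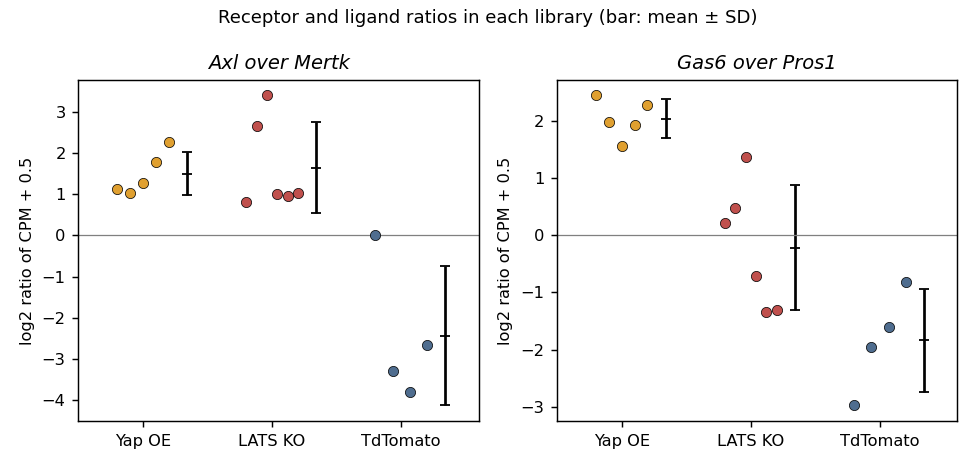
Log2 ratio of Axl to Mertk (left) and of Gas6 to Pros1 (right) per library, from CPM plus 0.5, with the mean and SD beside each group of 5 Yap OE, 6 LATS KO and 4 TdTomato libraries. The Gas6 to Pros1 ratios of Yap OE lie at 1.56 to 2.45, above those of LATS KO, at -1.34 to 1.37.

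The 6 LATS KO libraries did not vary in the same way for each gene. Axl was at 10.2, 112, 4.78, 42.1, 25.3 and 14.2 CPM in LATS KO 1 to 6, highest in library 2. Mertk was at 5.63, 17.5, 0, 20.7, 12.8 and 6.73 CPM, with libraries 4 and 2 at the top. Gas6, at 225, 325, 358, 58.3, 35.9 and 33.0 CPM, and Pros1, at 193, 233, 138, 96.3, 92.0 and 82.0 CPM, were higher in each of libraries 1 to 3 than in each of 4 to 6. Tyro3 was at 1.57 and 0.860 CPM in libraries 1 and 2 and at 0.263 CPM or less in the other 4. The labels give no reason to divide these libraries, and none was tested.

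Macrophage marker sums were higher in both manipulated groups than in TdTomato, as Axl and Gas6 were. Mertk and Pros1 were called in neither. The 8 Kupffer cell markers summed to 197 to 586 CPM in Yap OE, 50.1 to 893 CPM in LATS KO and 3.26 to 15.8 CPM in TdTomato, and 7 of 8 were called higher in Yap OE and 8 of 8 in LATS KO against TdTomato. The 10 monocyte and recruited macrophage markers summed to 236 to 360 CPM in Yap OE, 68.8 to 570 CPM in LATS KO and 0 to 6.42 CPM in TdTomato, with 9 of 9 tested called higher in each, and Trem2 at 0 in TdTomato. Both sums were highest among the LATS KO libraries in library 2, where Axl was highest. Gas6 was highest in library 3, at 358 CPM, where the Kupffer sum was 83.5 CPM. That library had 89.9% of reads unmapped, and 4 of the 8 Kupffer markers had a count in it. In TdTomato 2 to 4 Mertk was at 5.98 to 8.66 CPM, and the part of these cells in its level was not tested. Of all genes, 17.9% were called higher in Yap OE and 10% in LATS KO, shares to set beside these marker counts and those below. The fit of LATS KO and TdTomato alone called 0 genes higher, and so none of these markers.

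Cholangiocyte markers, like Gas6 and Pros1, divided the LATS KO libraries. The 7 markers summed to 3754 to 6221 CPM in Yap OE and 24.2 to 47.9 CPM in TdTomato, where Cftr was at 0. In LATS KO they summed to 4387, 1938 and 1346 CPM in libraries 1 to 3 and to 202, 92.1 and 128 CPM in libraries 4 to 6, the libraries with less Gas6 and Pros1. Other lists divided these libraries in the opposite direction. In 1 to 3 against 4 to 6, hepatocyte sums were 40009 to 86544 against 150404 to 176803 CPM. Erythroid and platelet sums were 7.49 to 20.8 against 119 to 162 CPM, and sinusoidal endothelial sums 31.9 to 90.1 against 186 to 278 CPM. The low ends of 40009 and 31.9 CPM came from LATS KO 3, which had 89.9% of reads unmapped. In Yap OE, Pros1 was at 56.4 to 114 CPM and overlapped TdTomato. Of the 6 tested, 5 were called higher in Yap OE and 5 in LATS KO against TdTomato. Stellate cell and fibroblast markers summed to 24.8 to 164 CPM in Yap OE, 0 to 23.4 CPM in LATS KO and 0.0774 to 11.4 CPM in TdTomato, with 9 and 3 of 10 called higher, and Col1a1 and Acta2 at 0 in TdTomato. Sinusoidal endothelial markers summed to 113 to 179 CPM in Yap OE, 31.9 to 278 CPM in LATS KO and 21.2 to 50.4 CPM in TdTomato, with 3 of 8 called higher in each. The part of these cell types in the levels of the TAM genes was not tested, and in bulk liver more cells of a type and more RNA per cell cannot be told apart.

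**Figure D4:**
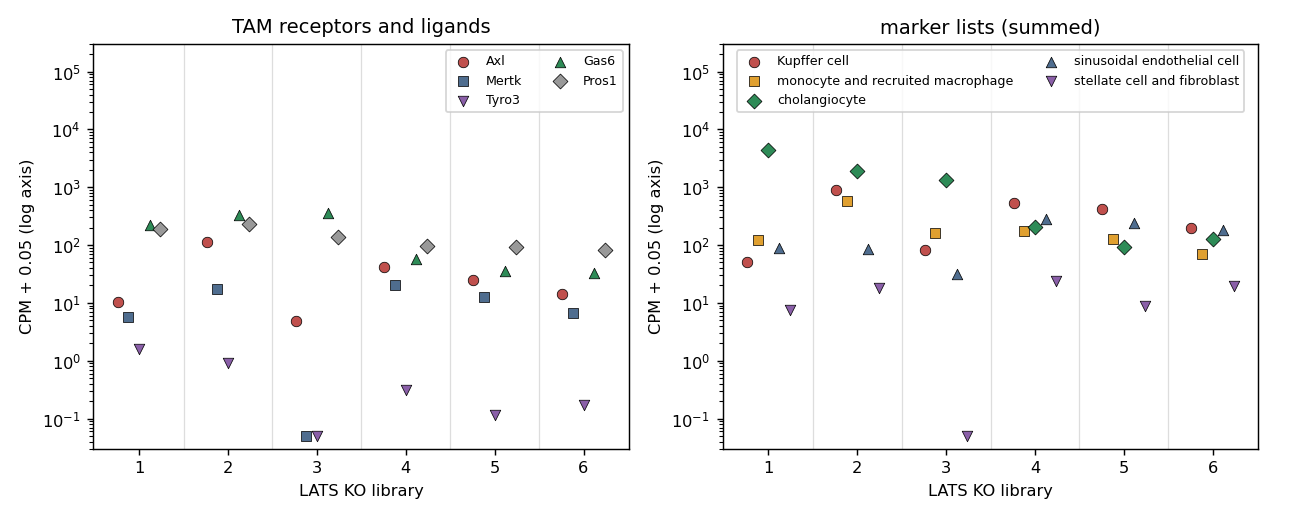
CPM plus 0.05 on a log axis in each of the 6 LATS KO libraries, for the 5 genes (left) and for the summed marker lists of 5 cell types (right). Axl and the macrophage sums peak in library 2, while Gas6, Pros1 and the cholangiocyte sum are higher in libraries 1 to 3 than in 4 to 6. The sinusoidal endothelial sum is lower in libraries 1 to 3.

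For each gene, the genes with the most similar pattern over the libraries were found by Pearson correlation of log2 CPM, as a description across libraries that share 3 groups and differ in depth. Axl was closest to Ptprc, which encodes the leukocyte antigen CD45 (r = 0.99), Ctss, a lysosomal protease of antigen-presenting cells (0.98), and Ptgs1, a cyclooxygenase (0.98). These were 0.99, 0.98 and 0.98 in the 13 libraries, where the closest genes were Ncf1, Vcam1 and Pik3cd (each 0.99). Gas6 was closest to St3gal2, a sialyltransferase, Lama5, a laminin chain, and Adcy1, an adenylyl cyclase (each 0.99), and St3gal2 stayed first in the 13 libraries. Tyro3 was closest to the kinase Src (0.97), the phosphatase Ptpn13 (0.97) and the p53 regulator Mdm2 (0.96), and in the 13 libraries to the p53 target Cdkn1a (0.98). Mertk was closest to Fnbp1 (0.99), Ap1g2 and Vps11 (each 0.98) over 15 libraries, but these fell to 0.72, 0.68 and 0.67 in the 13, where Prex1 (0.90), Sh2b3 (0.87) and Tcirg1 (0.83) came first. Pros1 had its closest genes at lower values, with Mlxip, Bmper and Smpd3 at 0.85, 0.84 and 0.84. Among the 5 genes themselves, the highest correlation was that of Tyro3 with Gas6, at 0.74 over 15 libraries and 0.95 over 13, while Axl with Gas6 gave 0.73 and 0.67.

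Other genes of the pathway were read from 8 lists with 86 symbols, of which 76 were tested. Of these, 29 were called higher and 11 lower in Yap OE against TdTomato, with 17.9% and 10.8% of all genes as the background. In LATS KO, 22 were called higher and 1 lower, with 10% and 0.973% as the background. A fit of LATS KO and TdTomato alone called 0 of 12020 genes higher and 1 lower, so none of the 22 was called higher there. No tested gene of the lists was called between Yap OE and LATS KO with edgeR in the 15 libraries. In the 13 libraries, a setting chosen after seeing the data, 32 were called higher and 18 lower in Yap OE against TdTomato, with 27.2% and 21.2% as the background, and 25 higher and 2 lower in LATS KO, with 13.7% and 3.24%. Between Yap OE and LATS KO, 5 were called there, where 12.7% of all genes were: Prrg1 was higher in Yap OE (log2 fold change 2.09), and Vkorc1l1 (-0.58), Furin (-0.86), F7 (-2.24) and F10 (-1.87) were lower (adjusted p = 0.0107 to 0.0363). With each library left out in turn, 25 of the 29 and 7 of the 11 kept their call in every such fit of Yap OE, and 12 of the 22 and 0 of the 1 in LATS KO. Medians below are log2 fold changes, to be read beside the 0.17 (Yap OE) and 0.13 (LATS KO) of all genes. Counts called in each list are to be read beside 17.9% higher and 10.8% lower (Yap OE) and 10% and 0.973% (LATS KO).

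Genes that make, carry or release the ligands and receptors came first. The vitamin K cycle and pro-protein processing genes, which ready Gas6 and protein S for secretion, had 2 of 5 called lower in Yap OE (median -0.87) and none called in LATS KO (median -0.28). Vkorc1l1, a vitamin K epoxide reductase, had a log2 fold change of -0.87 ± 0.19 in Yap OE (edgeR, adjusted p = 0.0054) and -0.28 in LATS KO (adjusted p = 0.384). Furin, a convertase that cuts pro-proteins, was at -0.95 in Yap OE (adjusted p = 0.0152, lost without TdTomato 3 at 0.0546). Ggcx, the carboxylase, was at -1.17 in Yap OE (adjusted p = 0.147), and in the 13 libraries at -1.51 (adjusted p = 0.00294), which makes 3 of the list lower there. Of 11 tested genes for other vitamin K-dependent proteins and the protein S partner C4bp, 2 were called higher and 5 lower in Yap OE (median -0.99) and none in LATS KO (median -0.66). Prrg1 and Prrg4, membrane proteins with a Gla domain, were at 5.44 (adjusted p = 0.00399) and 5.25 (adjusted p = 0.0181) in Yap OE and at 3.10 and 4.52 in LATS KO (adjusted p = 0.0577 and 0.056), with 6.17 for Prrg1 in Yap OE without TdTomato 3. Prrg1 was called higher in LATS KO in the 13 libraries (3.03, adjusted p = 0.0100), where F2, for prothrombin, was also called lower in Yap OE (-1.25, adjusted p = 0.0163). F9, coagulation factor IX, fell by 1.77 on the log2 scale in Yap OE (adjusted p = 0.00736), and was at -0.87 in LATS KO (adjusted p = 0.177). Coagulation factors F7 and F10 fell by 2.78 and 2.54 in Yap OE (adjusted p = 0.00803 and 0.00899). Proc and Proz, for proteins C and Z, were also called lower in Yap OE (-0.99 and -1.84), and lost the call without any one of 9 and 7 libraries (adjusted p up to 0.0967 and 0.0792). The hepatocyte marker sum was also lower in its median in Yap OE, as given above, and its part in these values was not tested. F2 also stands in the hepatocyte marker list, so that sum is not independent of it.

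Shedding of TAM receptors from the cell surface depends on Adam10 and Adam17, neither of which was called. Of the 5 genes of that list, 3 were called higher in Yap OE (median 1.43) and 2 in LATS KO (median 0.95). Timp3, an inhibitor of Adam17, was at 3.90 in Yap OE (adjusted p = 0.00591) and 3.14 in LATS KO (adjusted p = 0.0245). Rhbdf1, which escorts Adam17 to the surface, was at 4.54 (adjusted p = 0.00489) and 3.40 (adjusted p = 0.0251). In LATS KO both calls were lost without TdTomato 2, 3 or 4 or LATS KO 2 (adjusted p = 0.052 to 0.0733). Rhbdf2, a relative of Rhbdf1, was the third in Yap OE (1.43, adjusted p = 0.0209, up to 0.054 with a library left out). Of 3 further Mertk ligands only Lgals3 (galectin-3) was tested. It had 3 counts in all in TdTomato, so its CPM ratio was 240 in Yap OE (95% interval 82.0 to 1165) and 572 in LATS KO (196 to 2777), an interval that covers counting error only. Without TdTomato 4, which held those counts, the fitted log2 fold change was 10.91 and 11.75, against 7.83 and 8.68 with it, and without LATS KO 2 the LATS KO value was 7.74.

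Downstream of the receptors, 4 of 13 tested genes were called higher in Yap OE (median 0.22) and 3 in LATS KO (median 0.14), and none lower. Vav1, a leukocyte exchange factor that Mertk acts on, was at 5.15 in Yap OE (edgeR, adjusted p = 0.00345) and 6.21 in LATS KO (adjusted p = 0.00483), and at 6.02 and 7.08 without TdTomato 2. Plcg2, a phospholipase of leukocytes, had 3 TdTomato counts and a CPM ratio of 50.8 in Yap OE (95% interval 17.2 to 248) and 118 in LATS KO (40.4 to 576), with its LATS KO call lost without TdTomato 2 or 4 (adjusted p = 0.0507 in each). Without TdTomato 3 the fitted log2 fold changes of Plcg2 were 6.63 and 7.35, against 5.46 and 6.18 with it, and without LATS KO 2 the LATS KO value was 5.23. The widely expressed members Grb2, Pik3r1, Pik3ca, Akt1, Akt2 and Ptk2 were called in neither comparison, but in the 13 libraries Grb2 (-0.42, adjusted p = 0.0144) and Akt2 (-0.88, adjusted p = 0.00252) were called lower in Yap OE. Of Socs1 and Socs3, the suppressors of cytokine signalling through which TAM receptors damp inflammation, Socs1 was called higher in Yap OE (adjusted p = 0.0109), with 3 TdTomato counts and a CPM ratio of 17.5 (95% interval 5.85 to 86.3) there and 9.59 (3.10 to 48.0) in LATS KO (adjusted p = 0.0564, and 0.0239 in the 13 libraries, where it was called). Its fitted value in Yap OE was 4.11, and 7.14 without TdTomato 4. Socs3 was at 0.22 in Yap OE and 0.69 in LATS KO (adjusted p = 0.69 and 0.234). Lck, a lymphocyte kinase, was the remaining gene called higher in both, from 1 TdTomato count, with a CPM ratio of 20.3 in Yap OE (95% interval 3.46 to 820) and 32.2 in LATS KO (5.54 to 1292). Both Lck calls were lost without TdTomato 2 or 4, and that of LATS KO also without TdTomato 1 (adjusted p up to 0.0672 in Yap OE and 0.0805 in LATS KO), and its fitted values were 5.80 and 6.31 without TdTomato 3, where they were 3.83 and 4.35 with it.

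Among 8 genes that expose phosphatidylserine or keep it inside, 3 were called higher and 3 lower in Yap OE (median 0.017), and 2 higher and 1 lower in LATS KO (median 0.33). Plscr1, a scramblase family member, was at 1.99 in Yap OE (adjusted p = 0.00486) and 1.48 in LATS KO (adjusted p = 0.0291). Atp11a, a flippase that returns phosphatidylserine to the inner leaflet, fell by 2.11 on the log2 scale in Yap OE (adjusted p = 0.00304) and by 1.30 in LATS KO (adjusted p = 0.0364). The LATS KO calls of these genes were lost without any one of 6 libraries for Plscr1 (adjusted p = 0.0545 to 0.0853) and 7 for Atp11a (0.0502 to 0.14), TdTomato 3 and 4 and LATS KO 1 and 2 among them in both, and for Plscr1 also in the 13 libraries (0.0628). Ano6, the scramblase of platelets, was at 3.72 in Yap OE (adjusted p = 0.00847) and 2.79 in LATS KO (adjusted p = 0.0458, lost without any one of 10 libraries; 2.17 without LATS KO 2). The scramblase family gene Xkr4 was called higher in Yap OE from 1 TdTomato count (CPM ratio 50.8, 95% interval 8.93 to 2024; fitted 5.15, and 7.11 without TdTomato 3), and Tmem30a, which encodes a flippase subunit, was called lower there (-1.36).

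The list with the highest count was that of other phosphatidylserine and apoptotic cell receptors and bridging molecules, with 13 of 17 tested called higher in Yap OE and 11 in LATS KO, and none lower. Its median log2 fold change was 4.96 in Yap OE and 4.61 in LATS KO, or 4.56 and 4.19 when the 4 members with 0 to 3 TdTomato counts were set to their CPM ratio or, at 0 counts, to its lower bound against 3 counts over the group. Cd36, a scavenger receptor that binds oxidised lipid and apoptotic cells, was at 208 to 401 CPM in Yap OE, 63.2 to 430.5 CPM in LATS KO and 7.09 to 13.4 CPM in TdTomato, with log2 fold changes of 4.94 ± 0.63 (adjusted p = 0.000559) and 4.61 ± 0.61 (adjusted p = 0.00271). C1qa, a chain of complement C1q that coats dying cells, was at 5.96 in Yap OE (adjusted p = 0.00206) and 6.37 in LATS KO (adjusted p = 0.00471). Without TdTomato 4 the C1qa values were 7.29 and 7.70, and without LATS KO 2 the LATS KO value was 5.78. Mfge8, a secreted bridge between phosphatidylserine and integrins, was at 4.96 in Yap OE (adjusted p = 0.00386) and 4.13 in LATS KO (adjusted p = 0.0134). Lrp1, Stab2, Scarf1 and Itgav were called in neither. With the 13 libraries, 14 were called higher and 1 lower in Yap OE, and 13 higher in LATS KO, since Stab2, a scavenger receptor of sinusoidal endothelium, was called higher in both (1.37 and 1.55), Stab1, its relative, higher in LATS KO (2.54), and Lrp1, an engulfment receptor, lower in Yap OE (-1.09, adjusted p = 0.0471). C1qa, C1qb and Timd4 also stand in the Kupffer marker list, and Stab2 in the sinusoidal endothelial list, so those sums are not independent of them.

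In the list of engulfment machinery, lipid efflux and the Cd47 brake, 3 of 16 tested genes were called higher in each comparison and 1 lower in Yap OE (medians 0.29 in Yap OE and 0.41 in LATS KO). Of all genes, 17.9% were called higher and 10.8% lower in Yap OE and 10% higher in LATS KO. The count called higher in Yap OE was thus near the share of all genes. Rac2, the Rac GTPase of blood cells, was at 5.51 in Yap OE (adjusted p = 0.00208) and 6.54 in LATS KO (adjusted p = 0.00319; 5.88 without LATS KO 2), while the widely expressed Rac1 was at 0.23 and 0.47 (adjusted p = 0.439 and 0.137). Sirpa, the receptor of the Cd47 signal, was at 3.69 in Yap OE (adjusted p = 0.000559) and 2.56 in LATS KO (adjusted p = 0.00475), and Cd47 itself was at 0.13 and 0.32 (adjusted p = 0.699 and 0.387). Dock2, a Rac activator of leukocytes, was the remaining gene called higher in both, from 3 TdTomato counts, with a CPM ratio of 58.9 in Yap OE (95% interval 20.02 to 287) and 178 in LATS KO (60.6 to 862). Its fitted values were 5.59 and 6.90, and 8.92 and 10.23 without TdTomato 3, and 6.27 in LATS KO without LATS KO 2. Nr1h3, a liver X receptor, was the gene called lower in Yap OE (-1.21, adjusted p = 0.00715). Its level was 52.4 to 65.6 CPM in Yap OE and 118 to 149 CPM in TdTomato, and the cells behind it were not tested. The 13 libraries gave 5 called higher and 3 lower in Yap OE, with Elmo1 (2.12) and Nr1h2 (0.42) added above and Crkl (-0.47) and Abca1 (-0.84) below, and 3 higher and 1 lower, Crkl (-0.46), in LATS KO.

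**Figure D5:**
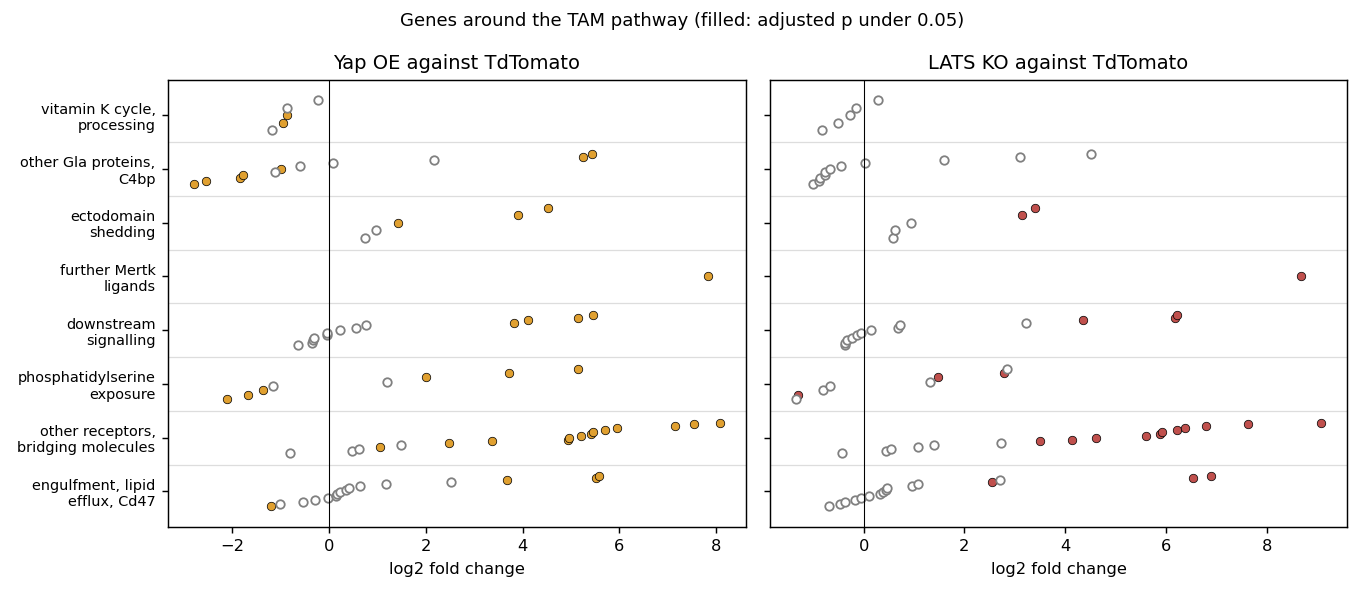
Log2 fold change against TdTomato of each tested gene in the 8 pathway lists, for Yap OE (left) and LATS KO (right), with filled points where the edgeR adjusted p was under 0.05. The list of other receptors and bridging molecules holds the most filled points, 13 in Yap OE and 11 in LATS KO, and the 2 vitamin K lists hold 2 and 5 of the 11 genes called lower in Yap OE.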

How the data were processed

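Whole-gene counts were deposited by the authors for 15 mouse liver libraries in the layout STAR writes, as whole numbers. FastQC, Trimmomatic, STAR and the mm10 genome are named per the submitters' processing notes, without versions. The reverse-strand column was taken, since the forward column held 0.966% to 1.99% of strand-assigned counts. Lines that name no gene held 14.2% to 92.5% of reads and were left out. The extraction note among the labels names a knockout that is none of these groups, so no animal detail was used.

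CPM used TMM-scaled library sizes. The filterByExpr rule kept 13055 genes. The quasi-likelihood test of edgeR 4.0.16 (R 4.3.3) was fitted to all 15 libraries with group as the only term (12 residual degrees of freedom, Benjamini-Hochberg adjustment, threshold 0.05). The SE is the size of the change over the square root of the test statistic. Ratios used exact permutation tests. Coordinates and exon lengths come from GENCODE M21, and promoter windows from RefSeq (GRCm38.p6). With 1 to 3 counts in a group, the CPM ratio has an exact 95% interval. No pair of replicates agreed within sampling noise.

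Named genes were the 5 genes, the 3 most correlated with each (mean CPM of at least 5, no Riken or Gm-numbered genes), and up to 2 per pathway list and comparison with the smallest adjusted p. Other pathway genes that are named were picked after their values were seen. The genes and lists were chosen with earlier results of these data known. Alternatives were RLE factors, DESeq2 1.42.0, limma 3.58.1 voom with quality weights, other filters, the unstranded column, the 2 compared groups alone, a replicate block, another added value in the ratios (0.1 CPM), and each library left out. The lists' fit to 13 libraries was added after seeing the data. The fit was also tested on simulated data drawn from its own model. These held no division within a group beyond that model's spread, so they cannot say how stable the calls are. The values of 1 gene of the pathway lists are not reported here.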

Additional observations from a re-analysis of the deposited data

Results flagged for a closer look

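Axl in LATS KO 2 was at 112.1 CPM, far from the other 5 LATS KO libraries, which had 4.78 to 42.1 CPM, by Dixon's test on the CPM scale (gap over range 0.652, critical value 0.625). On the log2 CPM scale the gap over range was 0.312, below that value. It was the only one of the 15 combinations of gene and group with such a library on the CPM scale, and chance marks about 1 in 20. On the log2 scale Mertk was marked in its place, for LATS KO 3 and TdTomato 1, the libraries where it had no count. The Kupffer and monocyte marker sums were also highest of the 6 in that library, at 893 and 570 CPM. The part of those cells in the Axl value was not tested.

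The Gas6 to Pros1 log2 ratio differed between Yap OE and LATS KO by 2.255 (exact permutation p = 0.00433). Each of the 5 Yap OE libraries was above each of the 6 LATS KO libraries.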

How the results depend on the processing

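In all, 24 results, among them the totals of genes called, were recomputed to 503 alternative values, of which 436 were marked as unchanged. For a gene or a ratio, this means the same direction and side of the threshold. For a total of genes called, it means a change too small to be marked as moved. In Yap OE, a total of 2585 with a library left out, against 3744, still counted as unchanged. With only the groups compared, Axl in LATS KO was 7.05 (adjusted p = 0.0621) and Gas6 2.72 (0.112), and Tyro3 was not tested. In the 13 libraries, Gas6 in LATS KO was 2.10 (0.0632), the Axl to Mertk ratio differed by 4.74 in Yap OE, 4.53 in LATS KO and 0.21 between them, and the Gas6 to Pros1 ratio by 3.50 in Yap OE and 0.93 in LATS KO. With limma voom, Tyro3 was -0.049 in LATS KO and 3.07 between Yap OE and LATS KO, and Gas6 was 2.85 between them. The replicate numbers did not pair the libraries (correlations of same-numbered libraries -0.25 to 0.23). With that number as a replicate block, Tyro3 in Yap OE was 3.71 (adjusted p = 0.0651), Axl between Yap OE and LATS KO 0.17, and the genes called were 740 in LATS KO, 3134 in Yap OE and 13 between them.

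With each library left out, the ranges against TdTomato were 6.30 to 7.39 for Axl, 3.05 to 3.797 for Tyro3 and -0.0052 to 0.23 for Pros1 in Yap OE, and 2.39 to 3.16 for Gas6 in LATS KO. Between Yap OE and LATS KO they were -0.60 to 0.48 for Axl and -0.50 to 0.064 for Mertk. Sign turned for Pros1 without Yap OE 3 and for Mertk without LATS KO 4. The Axl to Mertk ratio ranged over 3.47 to 4.74 in Yap OE, 3.62 to 4.88 in LATS KO and -0.34 to 0.21 between them (0.059 without LATS KO 2, 0.21 without LATS KO 3), and the Gas6 to Pros1 ratio over 3.50 to 4.22 in Yap OE and 1.25 to 1.96 in LATS KO. The genes called in LATS KO numbered 1438, with 2894 by DESeq2, 3504 by limma voom, 1 with only the groups compared, 2245 in the 13 libraries and 588 to 1798 with a library left out. In Yap OE they numbered 3744, with 8872 by limma voom and 6416 in the 13 libraries. Between Yap OE and LATS KO they numbered 129, with 779 by DESeq2, 7325 by limma voom, 1688 in the 13 libraries and 36 to 389 with a library left out. The cause of these changes was not tested.

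Axl and Tyro3 had 18 and 10 counts over the 4 TdTomato libraries, which limits the precision of their fold changes.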
